A study of Mus musculus with 32 samples.

Results

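The genes for the proteins of the cytosolic ribosome were followed in RNA from the basolateral amygdala of mice. They were taken by name and transcript type: an annotated protein-coding gene named Rpl or Rps plus a number with at most one closing a, l or x, one of Rplp0, Rplp1 and Rplp2, or Rpsa. This gave 80 of the 40392 genes in the table, 48 with large-subunit and 32 with small-subunit names. The name rule leaves out some ribosomal proteins, among them Rps3a1, Fau and Rack1, which are given separately where they matter. It takes in paralogs such as Rpl3l, Rpl39l, Rps27l and Rps4l.

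Polyadenylated RNA was sequenced from mice exposed to social defeat stress, in which an animal is confronted by an aggressor, and from control mice. The 8 groups, with 4 libraries each, were adolescent defeat day 1, adolescent control day 1, adolescent defeat day 21, adolescent control day 21, adult defeat day 1, adult control day 1, adult defeat day 21 and adult control day 21. The event from which days were counted, the strain and the sex were not given in the sources used here, and the mice, described as 6 or 9 weeks old, were not tied to an age class in the sample labels. No source says whether each of the 4 libraries in a group was a different animal. The p-values therefore rest on library-to-library spread, which may be technical.

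A ribosome is built from a large and a small subunit, each made of ribosomal RNA and one copy of most of its proteins, so a cell needs those proteins in near-equal numbers. Many of their mRNAs start with a C followed by a run of pyrimidines, the terminal oligopyrimidine (TOP) tract, through which mTOR signalling controls how strongly they are translated. In neurons, mRNAs of ribosomal proteins are also carried into dendrites and axons. Total mRNA, measured here, does not report that translation.

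The TOP starts below are shown because they are the shared sequence feature of the family. Each line is 20 bases before and 25 bases from a start listed by RefSeq on GRCm38.p6, and the capitals mark the pyrimidine run that begins at the listed start. The first 6 genes have such a run, and the last 3 do not at the start listed.
Rpl35 (chr2:39005107-39005151, minus strand): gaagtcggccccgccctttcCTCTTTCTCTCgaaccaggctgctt
Rps21 (chr2:180257359-180257403, plus strand): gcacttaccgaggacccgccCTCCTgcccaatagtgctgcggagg
Rps27 (chr3:90213624-90213668, minus strand): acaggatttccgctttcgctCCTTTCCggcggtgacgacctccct
Rpl14 (chr9:120571497-120571541, plus strand): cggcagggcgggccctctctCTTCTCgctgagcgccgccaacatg
Rpl15 (chr14:18270962-18271006, minus strand): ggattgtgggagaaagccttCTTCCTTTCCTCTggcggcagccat
Rps18 (chr17:33955641-33955685, minus strand): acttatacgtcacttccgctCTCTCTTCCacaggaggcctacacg
Rpl41 (chr10:128549144-128549188, minus strand): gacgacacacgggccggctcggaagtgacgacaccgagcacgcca
Rpsa (chr9:120127746-120127790, plus strand): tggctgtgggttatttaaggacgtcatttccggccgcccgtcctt
Rps4x (chrX:102189367-102189411, minus strand): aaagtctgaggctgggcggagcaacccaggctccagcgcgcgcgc

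RefSeq starts were matched for 59 of the 80 genes, at 71 listed starts. A C followed by at least 4 pyrimidines stood exactly at the listed start in 13 of the 71 (18.3%), against 2.51% of 32851 starts of all genes. A start listed a few bases away from the true one would miss the tract. In the window from 250 bases before to 50 bases after the start, on either strand, the letters CCGGAAG (a core bound by ETS factors) were found at 36.6% of the starts of ribosomal protein genes, against 8.86% of all starts. GGGCGG (the SP1 core) was found at 57.8%, against 35.7% of all starts. AAGATGGC (the YY1 core) was found at 9.86%, against 2.75% of all starts. TATAAA was found at 8.45%, against 13.6% of all starts. These are matches of letters in a fixed window, not sites shown to be bound.

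The libraries held 53885799 to 82208892 counts. Markers were read beside the tissue label: the pallial excitatory marker Slc17a7 was at 789 to 1279 CPM (counts scaled to library size) in every library, and Drd2, which marks striatum and central amygdala, at 45.9 to 112 CPM. A general pallial marker cannot set the basolateral amygdala apart from other pallial tissue. Ttr, the defining marker of choroid plexus, exceeded 100 CPM in 11 of 32 libraries. It lay at 813 to 1220 CPM in all 4 adolescent defeat day 1 libraries, but at 982 CPM in only 1 of the 4 adolescent control day 1 libraries, the other 3 holding 2.90 to 13.7 CPM. In bulk tissue, fewer cells of a type and less RNA per cell cannot be told apart.

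Ribosomal protein genes together held 0.803% to 1.003% of the counts of a library, with a median of 0.888%. The share averaged 0.933% ± 0.039 in adolescent defeat day 1 and 0.867% ± 0.027 in adolescent control day 1 libraries (SD, n = 4 each), and 0.934% ± 0.009 in adolescent defeat day 21 and 0.939% ± 0.053 in adolescent control day 21 libraries. In adults it averaged 0.884% ± 0.044 in defeat day 1 and 0.880% ± 0.070 in control day 1 libraries, and 0.906% ± 0.042 in defeat day 21 and 0.870% ± 0.013 in control day 21 libraries. The large-subunit genes held 1.46 to 1.54 times the counts of the small-subunit genes in all 32 libraries, a narrow range across ages, treatments and days. Of the 80 genes, 77 had a mean count over 500 per library. The other 3 were paralogs: Rps27l averaged 250 counts, Rpl3l 26.6 and Rpl39l 1.31. Rpl39l, which replaces Rpl39 in mouse testis, had 42 counts over 9 libraries and was the one member that did not pass the expression filter, leaving 79 tested.

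By the deposited FPKM values, which are levels per length of the gene model, the highest levels were those of Rplp1, an acidic protein of the stalk of the large subunit, at 439 FPKM, Rps15 at 285 and Rpl4 at 203. The lowest were Rpl39l at 0.019, Rpl3l, the form of Rpl3 typical of heart and skeletal muscle, at 0.22, and Rps27l at 4.23. The median gene was at 43.9 FPKM in the large and 44.6 FPKM in the small subunit. FPKM divides by the length of the gene model, and 62 of the 80 models include a retained-intron transcript. The median model was 1896 bases long, whereas the median principal protein-coding mRNA in GENCODE M21 had 780 bases.

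Per kilobase of that principal mRNA, the spread between genes was smaller. The 90th percentile lay 4.52-fold over the 10th among the abundant genes, against 7.82-fold by FPKM. The order of the genes was partly kept (Spearman rho 0.788 across genes, which are not independent replicates). Rplp1 stayed highest at 475 CPM per kilobase, followed by Rps15 at 388. Rpl13 came next at 303, although its FPKM was only 84.3. Rps20 and Rps15a were low at 17.9 and 18.8, but their principal transcripts in that annotation were 3706 and 5179 bases long, far longer than those of other members.

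**Figure D1:**
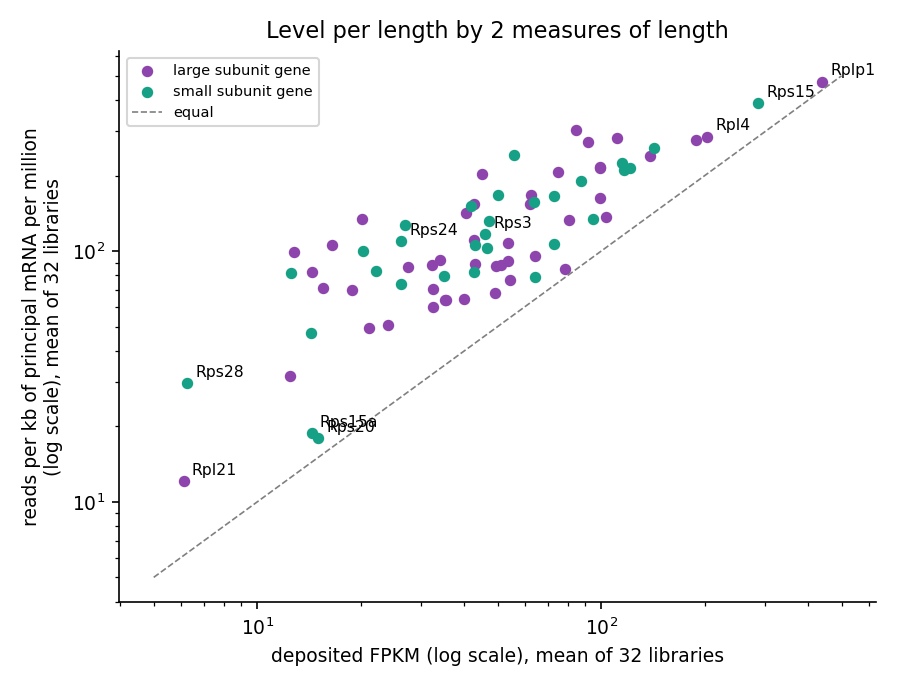
Level of each abundant ribosomal protein gene per length, as deposited FPKM (horizontal, log scale) and as CPM per kilobase of principal mRNA (vertical, log scale), each the mean of 32 libraries. All points lie above the line of equal values, and Rplp1 is highest on both axes.

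The first comparison asked what social defeat did in adolescents at day 1. Most ribosomal protein mRNAs had slightly higher values in defeat than in control libraries, but no single gene passed the threshold of 0.05 on the adjusted p from edgeR's quasi-likelihood test (0 of 79, against 0.0547% of all genes). The median log2 change was 0.12 over the 79 genes and -0.003 over all 23778 genes tested. At an unadjusted p under 0.05, 38 of 79 (48.1%) were higher in defeat, against 4.24% of all genes, and 0 were lower, against 3.21%. Within groups, members rose and fell together from library to library. Among the 77 abundant genes the median pairwise correlation was 0.55, with 95.2% of 2926 pairs above 0. Counts of members, here and below, are therefore not counts of independent genes. DESeq2 called 3 genes higher (Rpl36, Rpl41 and Rps20), and limma on log2 FPKM called 0. The share of all genes called by DESeq2 or limma was not computed, here or below, so nothing is read from those counts. The log2 change was above 0 for 73 of 79 genes, and all 4 defeat libraries lay above all 4 control libraries for 23 genes, against 2.64% of all genes. No gene had all 4 defeat libraries below the controls, against 2.16% of all genes. Without adolescent defeat replicate 4 the 38 became 22, and the median log2 change ranged from 0.11 to 0.17 when any one library was left out.

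The mean log2 CPM of the 77 abundant genes was 6.63, 6.48, 6.51 and 6.62 in the adolescent defeat day 1 libraries, against 6.43, 6.40, 6.39 and 6.36 in the adolescent control day 1 libraries. The groups did not overlap, and defeat replicates 1 and 4 were the highest. The 1 control library with high Ttr, replicate 3, had 6.39. Ttr was high in every defeat library, so choroid plexus content and defeat cannot be told apart in this comparison. The median log2 change was 0.12 for large-subunit and 0.13 for small-subunit genes.

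**Figure D2:**
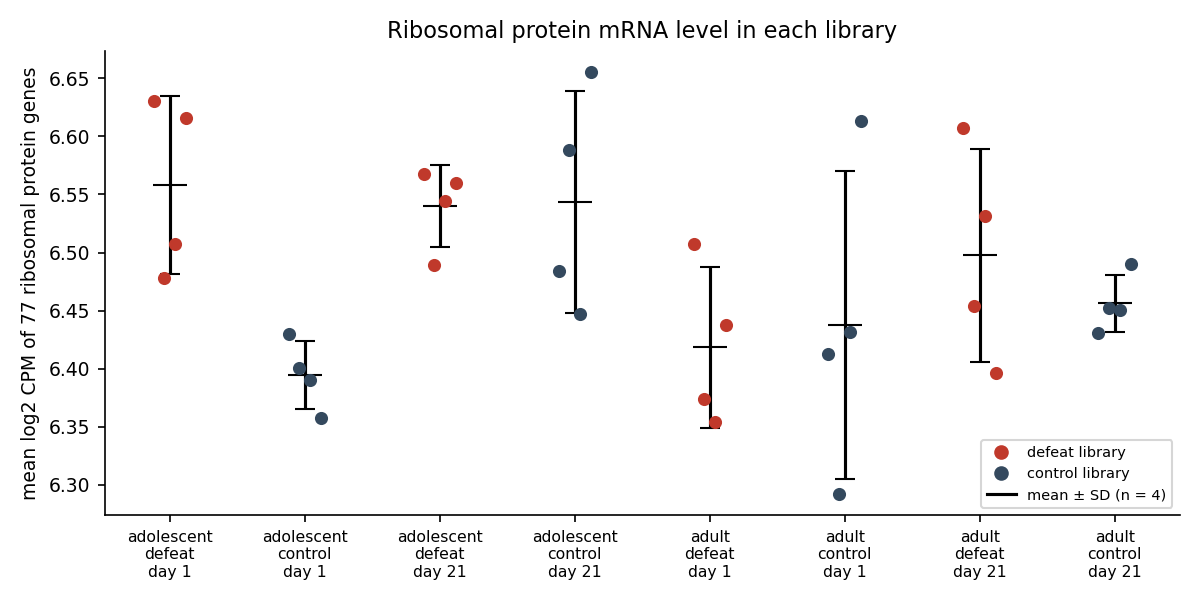
Mean log2 CPM of the 77 abundant ribosomal protein genes in each library, with group mean ± SD (n = 4). The adolescent control day 1 libraries lie between 6.36 and 6.43, below all 4 adolescent defeat day 1 libraries, while defeat and control libraries of the other ages and days overlap.

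Rpl36 (ENSMUSG00000057863, chromosome 17: 56920416 to 56921243 in the deposited table, build not stated), a large-subunit protein, had the smallest p. It was at 40.5, 35.4, 31.4 and 44.9 CPM in adolescent defeat day 1 libraries, against 28.4, 29.3, 28.5 and 28.2 CPM in adolescent control day 1 libraries. The controls were tightly grouped and all below the defeat libraries. The log2 change was 0.41 ± 0.10 (SE), with an adjusted p of 0.105 in edgeR. Leaving out defeat replicate 3, the lowest of the defeat libraries, gave 0.49 with an adjusted p of 0.0448, and leaving out replicate 4, the highest, gave 0.32 with 0.450.

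Rpl41 (chromosome 10: 128383983 to 128385031), which encodes the smallest ribosomal protein, was at 156, 144, 139 and 161 CPM in adolescent defeat day 1 libraries, against 112, 117, 109 and 121 CPM in adolescent control day 1 libraries. The groups did not overlap. The log2 change was 0.39 ± 0.09, with an edgeR adjusted p of 0.127. Rps20 (chromosome 4: 3831334 to 3835665), a protein of the head of the small subunit, was at 75.3, 67.7, 70.1 and 83.0 CPM in defeat libraries, against 64.9, 61.8, 60.0 and 58.9 CPM in control libraries. Here too every defeat library was above every control library, with a log2 change of 0.27 ± 0.07 and an adjusted p of 0.153.

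Rps21, a small-subunit protein whose TOP start is shown above, was at 46.3, 42.0, 43.2 and 51.3 CPM in adolescent defeat day 1 libraries, against 35.1, 38.7, 36.8 and 35.1 CPM in adolescent control day 1 libraries. All defeat libraries were above all controls, with a log2 change of 0.33 ± 0.09 and an edgeR adjusted p of 0.262. Rpl30 was at 49.9, 45.7, 52.8 and 67.4 CPM in defeat libraries, against 43.4, 36.0, 42.3 and 41.3 CPM in control libraries (0.40 ± 0.12, adjusted p = 0.266). The groups were apart, and defeat replicate 4 was well above the other defeat libraries. Rpl23 was at 76.6, 65.8, 71.5 and 82.2 CPM in defeat libraries, against 64.2, 67.0, 61.4 and 57.6 CPM in control libraries. Here 1 control exceeded the lowest defeat library, with a log2 change of 0.24 ± 0.06 and an adjusted p of 0.178.

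Log2 changes varied among the better known members. Rpsa, the small-subunit protein also known as the laminin receptor, was at 406, 384, 418 and 377 CPM in adolescent defeat day 1 libraries, against 445, 400, 411 and 371 CPM in adolescent control day 1 libraries. The groups overlapped fully, and the log2 change was -0.04. The stalk protein Rplp0 had a log2 change of 0.002, whereas its partners Rplp1 and Rplp2 had 0.18 and 0.27, both among the 38. Rpl4 and Rpl10 had 0.04 and 0.03. Rpl5 and Rpl11, which together hold back Mdm2 when ribosome assembly fails, had 0.07 and 0.15. Rps6, the S6 kinase substrate, had 0.15 ± 0.04 (edgeR adjusted p = 0.298), and it and Rpl11 were also among the 38. Rps4l had -0.13, while its X-linked relative Rps4x had 0.07.

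The 2 largest log2 changes belonged to genes with near-identical copies elsewhere, under whose models reads were also listed. Rps27 (chromosome 3: 90119829 to 90120955), a small-subunit protein with a zinc finger, was at 22.8, 26.1, 27.3 and 30.1 CPM in adolescent defeat day 1 libraries, against 5.92, 14.99, 7.62 and 22.5 CPM in adolescent control day 1 libraries. The controls were widely spread, and the highest control lay just under the lowest defeat library. The log2 change was 1.06 ± 0.45 with an adjusted p of 0.588. Reads listed under its copy Rps27rt (chromosome 9: 114811434 to 114811807) and 1 pseudogene came to 18.4, 7.72, 6.26 and 17.2 CPM in defeat libraries, against 27.9, 17.1, 21.8 and 5.09 CPM in control libraries. Among the controls, the copies were high in the libraries where Rps27 was low.

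Adding the related models to Rps27 lowered its within-group SD on the log2 scale to 0.15, against 0.73 for Rps27 alone, and its change to 0.34 with an adjusted p of 0.322. Rpl17 (chromosome 18: 75131629 to 75136452), a large-subunit protein at the exit tunnel, held fewer reads than its 10 pseudogenes, which had 280% of its counts. It was at 93.6, 63.4, 50.7 and 45.3 CPM in defeat libraries, against 33.5, 31.0, 46.5 and 38.3 CPM in control libraries, with 1 control above the lowest defeat library. With the pseudogenes added, its log2 change was 0.07, against 0.76 alone, and the within-group SD was 0.07, against 0.49 alone. In Rpl7a the SD was 0.16 with related models and 0.43 without.

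Across the family, 262 pseudogene or near-copy models of 61 members held 7.39% as many counts as the members. In 20 members they exceeded 10% of the member's own counts and in 6 they exceeded 50%. The median log2 change in adolescents at day 1 was 0.12 with these models added, as it was without them.

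**Figure D3:**
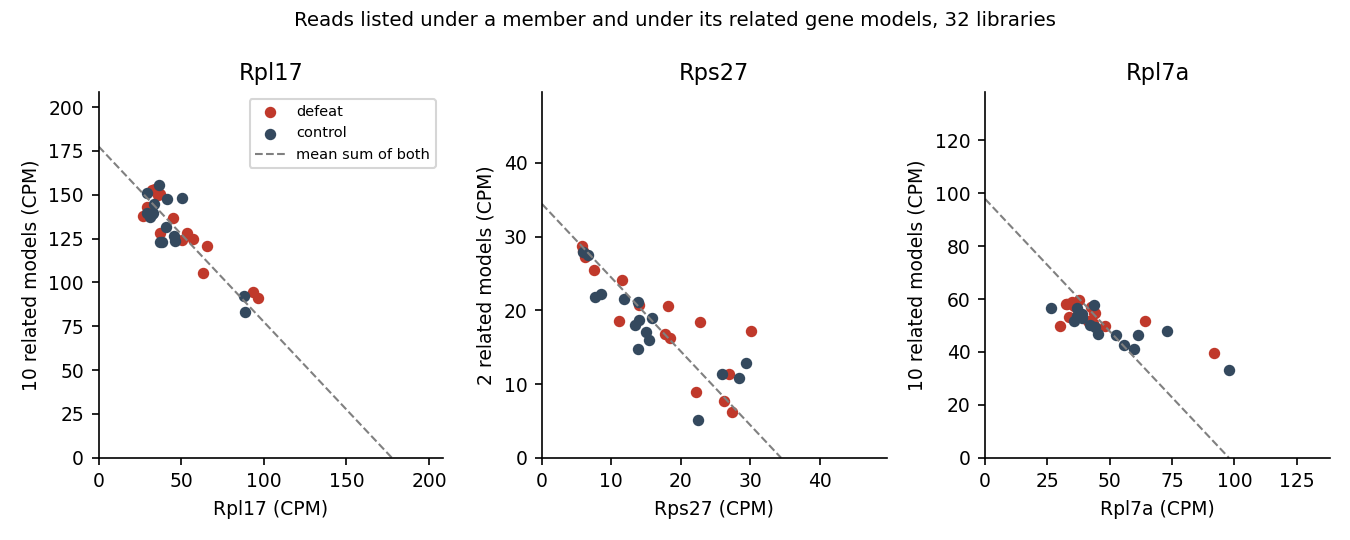
CPM listed under Rpl17, Rps27 and Rpl7a (horizontal) and under their related gene models (vertical) in 32 libraries, defeat and control. Libraries with more reads under Rpl17 or Rps27 have fewer under its copies, close to the dashed line of constant sum, and the within-group SD of the sum is 0.07 for Rpl17 and 0.15 for Rps27 on the log2 scale.

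Log2 changes were larger in shorter mRNAs, among ribosomal protein genes and among other genes. Among 76 abundant members, log2 change in adolescents at day 1 and mRNA length had a Spearman rho of -0.49 across genes. Among 10811 other genes it was -0.20. Members under 750 bases had a median log2 change of 0.18 (33 genes), and other genes of that length had 0.12 (192 genes, 86.5% of them above 0). Between 750 and 1500 bases the medians were 0.11 for 34 members and 0.04 for 1123 other genes. Other genes over 3000 bases had -0.01 (5887 genes). In adults at day 1, rho was 0.008 among the same members and 0.16 among the other genes, and the shortest members had a median of -0.004. The part of mRNA length in the members' change was not tested.

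**Figure D4:**
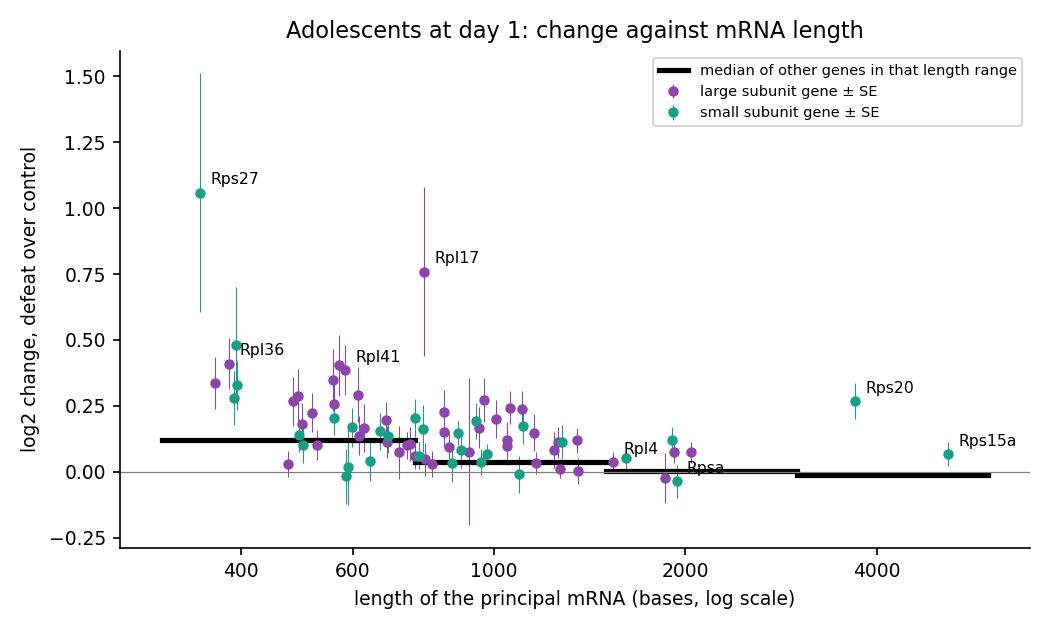
Log2 change of abundant ribosomal protein genes in adolescents at day 1, defeat over control (± SE), against the length of the principal mRNA (log scale). Black lines give the median of other genes in each length range, 0.12 under 750 bases and -0.01 over 3000 bases, and members under 750 bases have a median of 0.18.

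The 13 genes with a TOP tract at the listed start had a median log2 change of 0.21 in adolescents at day 1, against 0.11 for the 45 matched genes without one there. Between adolescent control days, day 21 against day 1, the medians were 0.17 and 0.12. The 45 can include genes whose tract was missed because the start is listed a few bases off. The part of the tract was not tested. Rpl41, without a tract at its listed start, was among the genes with the largest changes. Of ribosomal proteins outside the name rule, Fau had a log2 change of 0.20 ± 0.06 (edgeR adjusted p = 0.366), Rps3a1 0.10 ± 0.04 (adjusted p = 0.622) and Rack1 -0.01.

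Gene lists of related machinery were read in the same comparison. In the nuclear oxidative phosphorylation list the median log2 change was 0.15, and 32 of 49 genes were higher at an unadjusted p under 0.05 with 0 called, where all genes gave 4.24% higher and 3.21% lower. Uqcr11, a complex III subunit, had 0.27 ± 0.07 (edgeR adjusted p = 0.126). Mitochondrial ribosomal proteins had a median of 0.03, with 6 of 78 higher at an unadjusted p under 0.05. Translation factors whose mRNAs carry TOP tracts had 0.04, with 4 of 20 higher. Ribosome biogenesis factors had -0.003, with 1 of 40 higher and 2 lower, and the mTOR list had -0.005, with 3 of 26 higher and 1 lower. EdgeR called 0 genes in all 5 lists, and nothing is read from counts as small as 6 of 78 or 1 of 40 beside those shares of all genes.

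Markers of other cells differed in value in the same comparison, with 0 called by edgeR in the lists given here. All 16 choroid plexus markers were above 0, with a median log2 change of 1.69 and 3 higher at an unadjusted p under 0.05. Red cell markers had a median of 0.77, with 6 of 6 above 0 and 5 higher at that p. Vessel markers had 0.27, with 11 of 12 above 0 and 5 higher, and microglia markers 0.11, with 8 of 10 above 0 and 3 higher. Striatum and central amygdala markers had 0.18, with 10 of 10 above 0 and 0 at that p, while basolateral amygdala and pallial excitatory neuron markers had -0.10, with 0 of 8 above 0. Astrocyte markers had -0.06, with 2 of 10 lower at that p, and general neuron markers -0.04, with 1 of 11 lower. When a choroid plexus score entered the fit, the members' median was 0.16, and 40 were higher at an unadjusted p under 0.05. Ttr was high in every defeat library but in only 1 control library, so that fit cannot separate choroid plexus content from defeat. The part of choroid plexus and of the other cell types in the members' change was not tested. Without the libraries high in Ttr no defeat library remained in this group.

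In adolescents at day 21 the family did not differ in one direction between defeat and control. The median log2 change was -0.002, with 38 genes above 0 and 41 below. With edgeR, 0 of 79 genes were called, against 0.0126% of all genes, and 0 reached an unadjusted p under 0.05 in either direction, against 2.73% higher and 2.99% lower of all genes. All defeat libraries lay above all controls for 2 genes (Rps4x and Rpl28), against 1.92% of all genes, and below them for 0, against 1.94%. DESeq2 and limma also called 0. Rpl36 was at 35.6, 36.0, 34.5 and 34.8 CPM in adolescent defeat day 21 libraries, against 30.7, 32.9, 30.2 and 36.3 CPM in adolescent control day 21 libraries. Its groups overlapped, with a log2 change of 0.11. The lowest value was that of Rpl3l (-0.73 ± 0.39, edgeR adjusted p = 0.904), which was at most 0.544 CPM in the libraries of both groups.

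In adults at day 1 the median log2 change was -0.004, the same as for all genes. EdgeR called 0 of 79 genes, against 0.353% of all genes, and DESeq2 and limma also called 0. At an unadjusted p under 0.05, 1 gene was higher, against 5.19% of all genes, and 0 were lower, against 4.31%. No gene had groups that did not overlap, against 3.07% above and 2.35% below of all genes. The 1 gene was Rpl41, at 129, 125, 121 and 118 CPM in adult defeat day 1 libraries, against 122, 94.2, 86.8 and 125 CPM in adult control day 1 libraries. The groups overlapped, since control replicates 1 and 4 lay among the defeat libraries, and the log2 change was 0.20 ± 0.09 (edgeR adjusted p = 0.495). Rps27 had -0.73 ± 0.46 alone and -0.003 with its related models added. Ttr exceeded 1000 CPM in 2 defeat libraries and 1 control library of this pair, and their mean log2 CPM of the family was 6.37, 6.35 and 6.41. The other 5 libraries lay between 6.29 and 6.61. The part of choroid plexus content in these values was not tested.

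In adults at day 21 the median log2 change was 0.05, and 69 of 79 genes were above 0. EdgeR called 0 of 79, against 0.00841% of all genes, as did DESeq2 and limma. At an unadjusted p under 0.05, 0 were higher and 0 lower, against 3.17% and 3.29% of all genes. Rps6 was at 205, 200, 202 and 194 CPM in adult defeat day 21 libraries, against 193, 191, 183 and 192 CPM in adult control day 21 libraries. It was the one member whose groups did not overlap, against 1.99% above and 1.9% below of all genes, with a log2 change of 0.08 ± 0.04 and an edgeR adjusted p of 0.859. Choroid plexus markers had a median of -1.19 here (0 of 16 above 0). Vessel markers had -0.23, with 5 of 12 lower at an unadjusted p under 0.05 and 1 higher. Astrocyte markers had 0.12 and striatum and central amygdala markers 0.25, each with 10 of 10 above 0 and 3 higher at that p. EdgeR called 0 in these lists, and their part in the members' values was not tested.

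**Figure D5:**
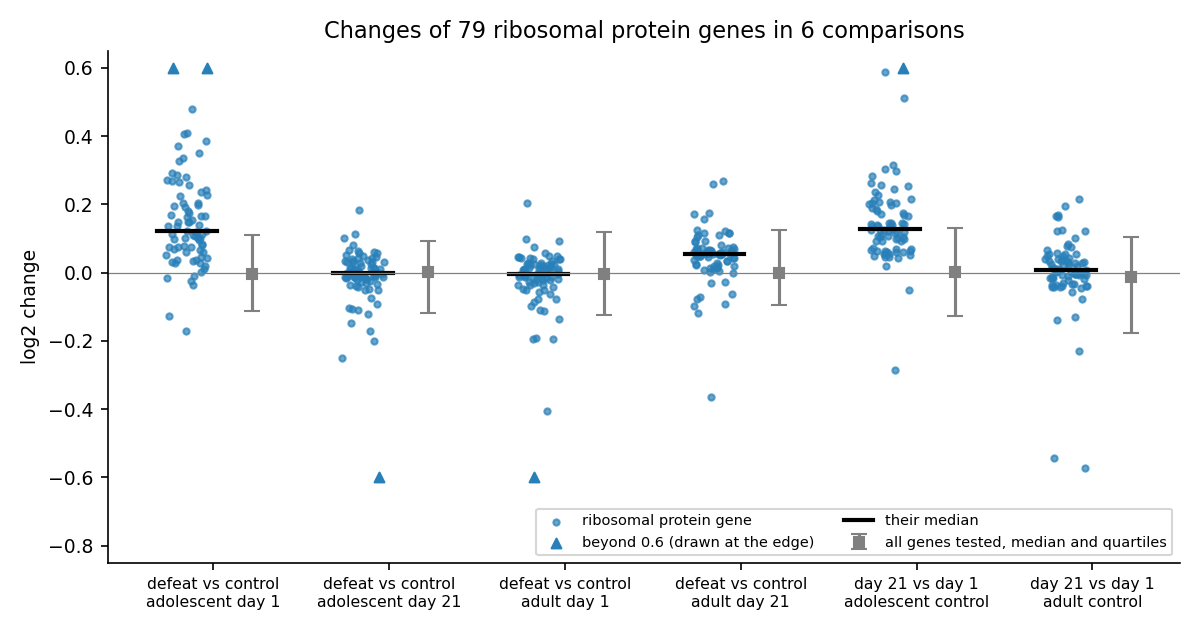
Log2 change of each of 79 ribosomal protein genes in 4 comparisons of defeat with control and 2 of control day 21 with day 1, with their median (black) beside the median and quartiles of all genes tested (grey). The medians are 0.12 in adolescents at day 1 and 0.13 between adolescent control days, and between -0.004 and 0.05 elsewhere.

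The difference between ages in the effect of defeat was tested directly. At day 1, the effect in adults minus the effect in adolescents had a median log2 difference of -0.14, and 20 of 79 genes were lower at an unadjusted p under 0.05, against 3.14% of all genes, and 0 higher, against 3.48%. EdgeR called 0, against 0.0168% of all genes, as did DESeq2 and limma. The smallest p was that of Rps21 (-0.44 ± 0.13, adjusted p = 0.402), followed by Rpl23 (-0.28 ± 0.09, adjusted p = 0.445). The 20 became 8 without adult control replicate 4 and 9 without adolescent defeat replicate 4, and 32 without adult control replicate 2. At day 21 the median was 0.06, with 1 gene higher at an unadjusted p under 0.05, against 3.54% of all genes, 0 lower, against 3.74%, and 0 called, against 0.0252% of all genes. DESeq2 and limma called 0 there as well.

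The difference between days was tested in the same way. In adolescents, the effect at day 21 minus the effect at day 1 had a median of -0.14, and 19 of 79 genes were lower at an unadjusted p under 0.05, against 2.77% of all genes, and 0 higher, against 2.2%. EdgeR called 0, against 0.00421% of all genes, and DESeq2 and limma called 0. Rpl41 led with -0.49 ± 0.13 (adjusted p = 0.591). The 19 ranged from 9 without adolescent defeat day 1 replicate 4 to 30 without adolescent control day 21 replicate 3, with 11 without adolescent control day 21 replicate 4. In adults the median was 0.05, 1 gene was lower at an unadjusted p under 0.05 (Rpl41), against 5.93% of all genes, 0 were higher, against 4.62%, and edgeR called 0, against 0.622% of all genes. DESeq2 and limma called 0. Choroid plexus markers had a median of -0.96 in the adolescent difference and -1.88 in the adult one, with 0 of 16 above 0 in each. Genes of nuclear oxidative phosphorylation had -0.16 in adolescents, with 19 of 49 lower at an unadjusted p under 0.05 and 0 higher. Choroid plexus content and defeat cannot be told apart in the adolescent difference, which uses adolescent defeat day 1. The part of these lists was not tested.

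Values were also higher in adolescent controls at day 21 than in adolescent controls at day 1. The adolescent control day 1 libraries enter this comparison, the defeat comparison at day 1, both differences at or across day 1 above and the age comparison at day 1, so these are not independent. The median log2 change was 0.13, 77 of 79 genes were above 0, and 34 were higher at an unadjusted p under 0.05, against 5.69% of all genes, with 0 lower, against 6.16%. All 4 day 21 libraries lay above all 4 day 1 libraries for 18 genes, against 3.16% of all genes, and below them for 0, against 3.95%. EdgeR called 1 gene, Rpl14, against 0.925% of all genes, DESeq2 called 5 (Rpl14, Rpl12, Rplp1, Rplp2 and Rps16) and limma called 1. The 34 became 14 without adolescent control day 21 replicate 4 and 18 without adolescent control day 1 replicate 4.

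Rpl14 (ENSMUSG00000025794, chromosome 9: 120400510 to 120403720), a large-subunit protein whose start is shown above, was at 87.4, 99.6, 88.7 and 105 CPM in adolescent control day 21 libraries, against 82.9, 75.9, 78.0 and 73.2 CPM in adolescent control day 1 libraries. The groups did not overlap. The log2 change was 0.30 ± 0.07 with an adjusted p of 0.0416. The call was lost in the fit of these 2 groups alone (adjusted p = 0.0677), when a choroid plexus score entered the fit (0.0512), and when all genes with counts were kept (0.0728). Without the libraries over 100 CPM of Ttr it was lost too (log2 change 0.34, edgeR adjusted p = 0.181). It was also lost without day 21 replicate 2 or 4, or day 1 replicate 2, 3 or 4, with an adjusted p of up to 0.206. In adolescents at day 1, Rpl14 was at 94.0, 84.4, 86.9 and 90.8 CPM in defeat libraries, all above the same 4 controls.

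Rplp2 was at 50.8, 56.8, 46.8 and 52.4 CPM in adolescent control day 21 libraries, against 43.4, 45.5, 43.2 and 37.9 CPM in adolescent control day 1 libraries, without overlap and with an edgeR adjusted p of 0.0957. Rpl12, at the base of the stalk, had a log2 change of 0.24 ± 0.07 and an adjusted p of 0.0728. Myelin and oligodendrocyte markers were lower at day 21 in this comparison, with a median log2 change of -0.70 and 5 of 10 called, against 0.925% of all genes, and choroid plexus markers had -0.83 (0 of 16 above 0). Striatum and central amygdala markers had 0.24, with 10 of 10 above 0 and 1 higher at an unadjusted p under 0.05. Genes of nuclear oxidative phosphorylation had 0.08, with 46 of 49 above 0 and 10 higher at that p. The part of these lists in the members' change was not tested, and without the libraries high in Ttr the members' median was 0.15.

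In adult controls, day 21 against day 1, the median log2 change was 0.007, with 3 genes higher at an unadjusted p under 0.05 (Rpl14, Rpl41 and Rpl36), against 6.7% of all genes, and 0 lower, against 6.2%. No gene had groups that did not overlap, against 4.08% above and 2.8% below of all genes. EdgeR called 0, against 0.858% of all genes, as did DESeq2 and limma. The 3 became 13 without adult control day 1 replicate 4, with Rps19 called, and 0 without adult control day 1 replicate 2 or 3 or adult control day 21 replicate 4. Rpl14 was at 87.8, 85.7, 87.2 and 102 CPM in adult control day 21 libraries, against 80.3, 73.0, 78.3 and 91.3 CPM in adult control day 1 libraries. Those groups overlapped through the highest day 1 library, with a log2 change of 0.17 ± 0.07 and an adjusted p of 0.304. Myelin and oligodendrocyte markers had a median log2 change of -0.39 in adult controls as well, with 9 of 10 lower at an unadjusted p under 0.05 and 0 called. Choroid plexus markers had -1.78 (0 of 16 above 0), and edgeR called 7 of 12 vessel markers higher; their part was not tested. Whether the members' change differs between the ages was not tested.

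Adult and adolescent controls were compared last. At day 1 the median log2 difference, adult over adolescent, was 0.05, with 2 genes higher and 1 lower at an unadjusted p under 0.05, against 8.62% and 7.89% of all genes. All adult libraries lay below all adolescent ones for 1 gene (Rps4l), against 4.33% of all genes, and above them for 0, against 4.36%. EdgeR called 0, against 4.38% of all genes, as did DESeq2 and limma. The 2 higher became 10 without adult control day 1 replicate 2, with Rpl27a called, and the 1 lower became 4 without replicate 4. At day 21 the median was -0.08 and 10 genes were lower at an unadjusted p under 0.05, against 8.92% of all genes, with 0 higher, against 10.1%. All adult libraries lay below all adolescent ones for Rplp0, Rpl32 and Rpl17, against 5.45% of all genes, and above them for 0, against 7.09%. With its related models added, Rpl17 was at 171, 172, 168 and 181 CPM in adult control day 21 libraries. Adolescent control day 21 libraries then had 180, 189, 172 and 199 CPM, and the groups overlapped. EdgeR called 0 there, against 6.06% of all genes, DESeq2 called 1 and limma 2. The 10 became 2 without adolescent control day 21 replicate 4, 5 without replicate 2 and 21 without replicate 3. It became 4 without adult control day 21 replicate 2 or replicate 3, and 4 without the libraries high in Ttr, but 26 with upper quartile scaling and 24 by limma. Upper quartile scaling moved the median of all genes from -0.013 to -0.043, and that of the members from -0.079 to -0.109. The share of all genes under these alternatives was not computed, so nothing is read from these counts.

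Rps4l led in both. At day 1 it was at 24.5, 23.8, 22.8 and 20.3 CPM in adult control libraries, against 25.6, 30.0, 28.4 and 25.5 CPM in adolescent control libraries, without overlap (log2 change -0.26 ± 0.09, edgeR adjusted p = 0.125). At day 21 it was at 22.4, 21.8, 23.9 and 25.8 CPM in adult control libraries, against 25.7, 28.3, 29.1 and 30.7 CPM in adolescent control libraries. Those groups touched at 1 library each, with -0.27 ± 0.09 and an adjusted p of 0.0796. DESeq2 called Rps4l at day 21 (adjusted p = 0.0440). Its relative Rps4x was at 202, 200, 192 and 196 CPM in adult control day 21 libraries, against 207, 212, 199 and 215 CPM in adolescent control day 21 libraries, again overlapping.

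Rplp0 was at 177, 177, 175 and 178 CPM in adult control day 21 libraries, against 192, 198, 184 and 201 CPM in adolescent control day 21 libraries. The adult libraries were close together and all lower (log2 change -0.13 ± 0.05, edgeR adjusted p = 0.139), and limma called it. Rpl32, a large-subunit protein, was at 53.6, 53.0, 53.0 and 51.9 CPM in adult control day 21 libraries, against 59.3, 60.4, 56.7 and 63.7 CPM in adolescent control day 21 libraries. It too was lower in every adult library (-0.18 ± 0.07, adjusted p = 0.155), and it was called in the fit of these groups alone (adjusted p = 0.0407). Of 12 vessel markers, edgeR called 3 higher and 1 lower in adults in this comparison, where 6.06% of all genes were called. It called 2 of 10 astrocyte markers lower (1 of 10 above 0) and 1 of 8 basolateral amygdala and pallial excitatory neuron markers higher. Striatum and central amygdala markers had a median of -0.26, with 0 of 10 above 0 and 0 called. The part of these cell types was not tested.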

How the data were processed

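Counts and FPKM values were used as deposited for 32 libraries of mouse RNA selected with oligo(dT), per the labels' protocols. Per the submitters' processing notes, the authors used cutadapt 1.9, HISAT2 2.0.4, StringTie 1.3.4d and edgeR. Raw read counts were deposited as whole numbers per gene, beside FPKM calculated by the authors. Their build entry is hg38, which is human, while all identifiers are mouse, so the build is taken as not stated. Neither the handling of reads shared between genes nor the strand setting is described. All 64 columns were matched to samples by title.

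Counts were fitted with edgeR 4.0.16 in R 4.3.3: default expression filter (23778 genes), TMM scaling, 8 group means, 24 residual degrees of freedom, quasi-likelihood F tests (2-sided) for 12 comparisons, Benjamini-Hochberg adjustment over all genes and a threshold of 0.05. SE equals |log2 change| over the root of F. CPM use TMM factors; the mean log2 CPM of members uses a prior count of 2. Scripts were tested on simulated data. No pair of libraries in a group agreed within sampling noise.

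Alternatives were other scalings and filters, limma 3.58.1 on log2(FPKM + 0.1) and log2(FPKM + 1), DESeq2 1.42.0, a replicate block, a choroid plexus covariate, omission of libraries over 100 CPM of Ttr, fits of the groups compared, and each library left out. Adding related gene models and the unadjusted counts under each alternative were chosen after seeing the data. Genes were named by a rule: the extremes of log2 change in each defeat comparison, called members, the 2 smallest p per comparison, and a set of paralogs and well-known members. Genes outside that rule, such as Rps20 and Rpl13, were named after their values were seen. The members and gene lists were chosen with earlier results of these data known. One gene outside the name rule is not reported here.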

Additional observations from a re-analysis of the deposited data

Results flagged for a closer look

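Within groups of 4 libraries, 25 named genes, the mean log2 CPM of the family and its share of counts were checked for a library far from the other 3 of its group. Of 216 group checks, 18 (8.33%) stood out, where chance gives about 1 in 20.

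In adolescent defeat day 1, replicate 1 was low for Rpl29 (62.1 CPM) and high for Rpl7a (64.2 CPM). In adolescent defeat day 21, Rpl41 (142 CPM) and Rpl7a (91.9 CPM) were high in replicate 4, Rpl3l was high in replicate 2 (0.498 CPM), and Rps18 was low in replicate 1 (67.0 CPM). In adolescent control day 21, Rpl18 was high in replicate 4 (79.02 CPM) and Rps15a was low in replicate 1 (86.6 CPM).

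In adult defeat day 1, Rpl37 was high in replicate 1 (58.6 CPM) and Rps6 was low in replicate 3 (182 CPM). In adult control day 1, replicate 1 was high for Rpl17 (88.5 CPM) and Rps15a (107 CPM), and replicate 4 was high for Rplp0 (205 CPM) and Rps18 (78.2 CPM). In adult control day 21, Rpl14 was high in replicate 4 (102 CPM), while replicate 3 was high for Rpl21 (25.3 CPM) and low for Rpl23 (63.3 CPM) and Rps6 (183 CPM). Rpl7a, Rpl17 and Rpl21 are 3 of the members whose related models hold more counts than they do. Within groups, member and related models had a correlation of -0.81 for Rpl7a and -0.89 for Rpl17, but 0.37 for Rpl21.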

How the results depend on the processing

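The median log2 change of the members moved by less than the within-group SD of their mean, 0.078, under every alternative that could be fitted. That SD is larger than most of the medians themselves, so this says little about medians near 0. Between adult control days the median was 0.007, and -0.004 with upper quartile scaling. Counts called moved more. Between adolescent control days, 1 gene was called; 0 were called with no filter on low counts, with the choroid plexus covariate, without the libraries over 100 CPM of Ttr and in the fit of the groups compared, 3 with a mean FPKM of at least 5, 5 by DESeq2, and 0 to 2 with 1 library left out. Between adult and adolescent controls at day 21, 0 were called, but 3 with a mean FPKM of at least 5, 2 by limma with either pseudocount, 1 in the fit of the groups compared and 1 by DESeq2. For adolescent defeat day 1, DESeq2 called 3, and 0 to 1 were called with 1 library left out; the range was also 0 to 1 for adult control days and for adult against adolescent controls at day 1.

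Rpl21 in adults at day 21 had -0.10 and turned to 0.028 with related models added. Rpl17 in adults at day 1 had -0.40, 0.23 without the libraries over 100 CPM of Ttr, and -0.64 to 0.057 with 1 library left out. For these reversals the cause was not tested. Values within 1 SE of 0 were taken to have no direction. Same-numbered defeat and control libraries of an age and day did not deviate together over all genes tested (correlations of -0.14 to 0.07). The main fit did not pair them, though this check cannot show that same-numbered libraries were unrelated. The replicate block left the counts at 0 for adolescent defeat day 1 (median 0.12) and 1 between adolescent control days. The omission of libraries high in Ttr could not be fitted for any comparison that uses adolescent defeat day 1. These are the defeat comparison itself, the difference between ages at day 1 and the difference between days in adolescents. The median member's SE was 0.07 on the log2 scale, and changes of that size were not detectable with 4 libraries a group.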
